A study of Mus musculus with 15 samples.

Results

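Organoids from liver metastases were compared with organoids from primary colon tumours over transplant rounds 2 and 3, in 12 of the 15 samples of the series. The 6 metastasis samples are the 3 of Met2 and the 3 of Met3, and the 6 primary samples are the 3 of Primary2 and the 3 of Primary3. The members were taken by the sample titles, and the round was kept as a block. The 3 Met1 samples were left out, so that only the groups compared set the spread. Round 1 has no primary group among the samples. All 12 samples are organoids of mouse colon cancer with the genotype AKP. Per the design text, organoids were put into the colon of immunocompetent mice (C57Bl6 in the labels), taken again from the primary tumour or from a liver metastasis, and transplanted once more, round after round. Metastasis and primary groups thus share genotype, host strain and culture, and differ in the site the organoids were taken from. Because organoids were transplanted again round after round, the groups can also differ in line of descent. Site and descent cannot be told apart here, and the rounds may not be independent. The labels do not say whether a group's 3 replicates stand for different mice, lines or cultures, so every p-value below measures only the spread between these samples. The primary groups are themselves tumours grown in mice and cultured, not normal colon, and no fresh tumour tissue is among the samples.

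Organoids are epithelial cells grown in a gel without the stroma of the tumour, so RNA-seq of organoids reads the tumour cells' own programme after culture. A colon cancer cell that grows in the liver meets other oxygen, nutrient and metal supplies than in the colon wall, and cells that spread are known to change their metabolism, their adhesion to matrix and neighbours, and their handling of stress. Many such changes in housekeeping pathways are small in fold but fall on genes that are among the most abundant mRNAs of the cell.

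Total counts per sample ran from 14122203 to 21306543, and 14465 of 54418 gene IDs had enough counts to be tested. A ribosomal RNA gene took 6.24% to 7.52% of counts in Met2 and 6.59% and 7.03% in Primary3 replicates 2 and 3, against 3.38% to 4.09% in the other 7 samples. Epithelial and colonic markers summed to 6430 to 9110 CPM (counts relative to the library size, scaled by TMM factors) in primary and 6500 to 17900 in metastasis samples. Of 12 hepatocyte markers 1 was at 0 in all samples, 1 passed the filter on low counts, and the sum was 0.702 to 1.99 CPM in primary and 0.578 to 1.34 in metastasis samples, so liver cell RNA was near 0. None of 10 fibroblast and stellate cell markers passed the filter, with 2 at 0 in all samples and sums of 0.183 to 0.753 CPM in primary and 0 to 5.22 in metastasis samples. The highest sum was that of Met2 replicate 1, with Dcn at 2.275, Col3a1 at 1.673 and Pdgfra at 1.071 CPM. The 8 endothelial markers, 2 of them at 0 in all samples, summed to 1.91 to 4.29 and 2.88 to 11.2 CPM. The 11 immune markers, 3 of them at 0 in all samples, summed to 10.8 to 48.1 and 12 to 30.6 CPM. Met2 replicate 1 differed from the other metastasis samples in several of the values below, so the counts are also given without it.

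Between metastasis and primary organoids 1937 genes were higher and 1961 lower (13.4% and 13.6% of the genes tested, 26.9% in all; edgeR quasi-likelihood F test, adjusted p under 0.05). Without Met2 replicate 1 the same test called 5056 genes in place of 3898, with 2494 higher and 2562 lower. Counts of a gene list without this sample, given below, thus belong beside these larger totals. The fitted size of the change in called genes differed by the level of the gene. Among called genes with a mean under 1 CPM, 67.8% changed at least 4-fold, with a median absolute log2 change of 2.68. Among those with a mean of 200 CPM or more, 3.42% changed at least 4-fold and the median was 0.50. A gene with few counts needs a larger fold to be called, so these sizes do not compare all genes of a level. The share called ran from 21.1% of genes under 1 CPM to 30.8% of genes between 50 and 200 CPM. Well expressed genes were thus called at least as often as weak ones, by smaller folds.

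Of the 4001 genes with a mean of at least 50 CPM, 422 were called with a moderate change, of at least 1.5-fold and under 4-fold. Of these 275 were higher (6.87% of the well expressed genes) and 147 lower (3.67%), so moderate rises outnumbered moderate falls. With a change under 1.5-fold, a further 393 well expressed genes were called higher and 342 lower. Changes of at least 4-fold ran the other way, with 15 well expressed genes higher and 40 lower. Without Met2 replicate 1 the number of moderate changes was 513, and scaled within each chromosome, as described below, it was 325.

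Each round was also tested on its own contrast, in a fit of the 4 groups that shares its scaling and its estimate of the spread over all 12 samples. The 422 moderate genes had the same direction in both rounds, as had all 3898 called genes (100%), so the agreement is no feature of the moderate genes. Genes were called on the change pooled over both rounds, which favours equal signs, so the agreement is no independent replication. Met2 against Primary2 called 1453 genes (10% of those tested) and Met3 against Primary3 2596 (17.9%). These counts depended on single samples. The round 2 count was 909 without Met2 replicate 3, 612, 702 and 567 without Primary2 replicate 1, 2 and 3, and 31 with the ribosomal RNA share as a covariate. The round 3 count was 1114 and 1442 without Met3 replicate 1 and 2, 1569, 1191 and 993 without Primary3 replicate 1, 2 and 3, and 1092 with the covariate. Of the 422 moderate genes, 163 were called in both rounds, 60 in round 2 only, 121 in round 3 only and 78 in neither, and for 207 the 6 metastasis samples did not overlap the 6 primary samples. Over all genes tested 12.4% did not overlap, and of the 3898 called genes 1758 did not. Called genes were selected on these same samples, so only the count among called genes is a like comparison. The direct test of a difference between rounds called 0% of genes with edgeR, where 1610 genes had an unadjusted p under 0.05. With limma-voom it also called 0 (1486 unadjusted), and with DESeq2 it called 200 (1848 unadjusted).

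**Figure D1:**
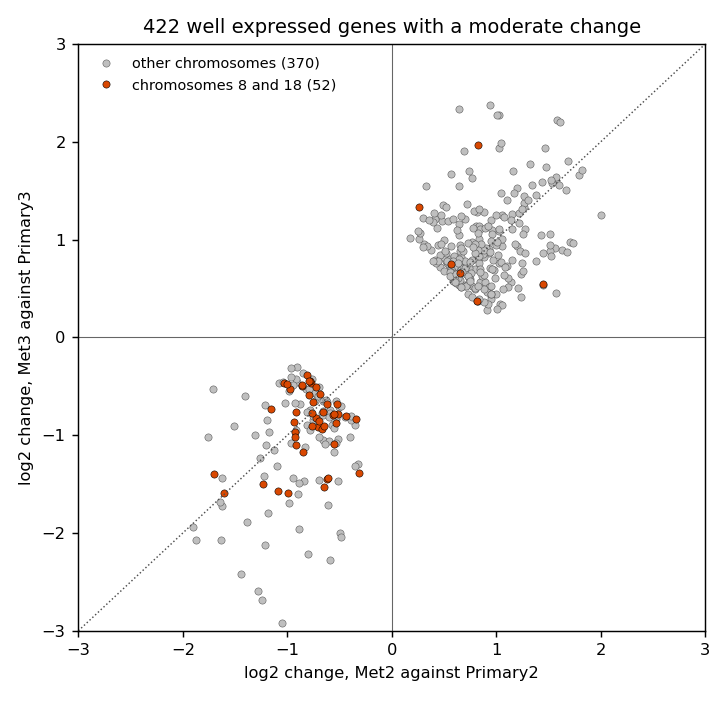
Log2 change of the 422 well expressed genes with a moderate change, in round 2 (x axis) against round 3 (y axis), 1 point per gene, with the 52 genes on chromosomes 8 and 18 in orange and the dotted line marking equal change. All points lie in the quadrants of equal sign, which selection on the pooled change favours. Of the 147 genes lower in metastasis, 46 are on chromosomes 8 and 18.

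Among moderate changes, 10 genes higher and 12 lower, with small p, no overlap of samples and a gene symbol, are described by name. The genes higher in metastasis were led by Bspry, a B-box and SPRY domain protein (ENSMUSG00000028392, GRCm38 chromosome 4, 62480053 to 62497298). Its level was 97.4, 121 and 125 CPM in Primary2 and 124, 126 and 108 in Primary3, against 291, 276 and 257 in Met2 and 349, 261 and 292 in Met3. Every metastasis sample was above every primary sample, and the log2 change was 1.29 (SE 0.10, adjusted p = 1.27e-05). Tmprss4, a membrane-bound serine protease of epithelial tumours, stood at 43.7 to 61.6 CPM in primary and 112 to 181 in metastasis samples (log2 1.55, SE 0.13, adjusted p = 2.32e-05). Pla2g4a, the cytosolic phospholipase that frees arachidonic acid for prostaglandin synthesis, rose by 1.61 (SE 0.15, adjusted p = 4.63e-05). It ran from 20.2 to 26.4 CPM in Primary2 and from 39.3 to 40.2 in Primary3, and from 51.4 to 101 in Met2 and 118 to 131 in Met3, with each round-3 group above the round-2 group of the same origin.

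Several of the higher genes act at the cell surface or on membrane traffic. Anxa4, a calcium-dependent phospholipid-binding annexin, was the most abundant of the 10, at 412 to 631 CPM in primary samples and 1038 CPM or more in every metastasis sample (log2 1.07). Cltb, the clathrin light chain b, was nearly constant in primary samples at 148 to 155 CPM and lay between 223 and 313 CPM in metastasis samples (log2 0.86). Cr1l, a complement regulator of the mouse, ran from 31.1 to 38.2 CPM in primary and from 55.4 to 72.6 in metastasis samples (log2 0.98). The remaining ones were Mgst3, a microsomal glutathione transferase (log2 1.28), Pde4dip, a scaffold of the Golgi and centrosome (1.36), Rasgef1b, a guanine nucleotide exchange factor (1.19), and Prelid1, a mitochondrial lipid transfer protein (0.63). Prelid1 had the smallest change of the 10, and its primary samples (355 to 433 CPM) still lay below its metastasis samples (579 to 643 CPM).

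The genes lower in metastasis were led by Malt1, a protease and scaffold of NF-kappaB signalling (ENSMUSG00000032688, GRCm38 chromosome 18, 65430938 to 65479067). It stood at 94.6, 103 and 90.3 CPM in Primary2 and 80.7, 89.2 and 94.3 in Primary3, against 28.8, 32.1 and 27.4 in Met2 and 34, 35.7 and 30.4 in Met3. Every metastasis sample was far below every primary sample (log2 -1.55, SE 0.09, adjusted p = 4.3e-06). Jak2, the tyrosine kinase below many cytokine receptors, changed most of the 12, from 126 to 181 CPM in primary to 31.7 to 59.3 CPM in metastasis samples (log2 -1.86, SE 0.17, adjusted p = 4.25e-05). Slc7a6, a transporter of cationic amino acids, fell from 62.1 to 88.3 CPM to 24 to 38.5 CPM (log2 -1.33). Npnt, the matrix protein nephronectin that binds integrins, fell from 220 to 308 CPM to 101 to 136 CPM (log2 -1.14). Litaf, a protein of late endosomes and lysosomes, fell from 84.9 to 146 CPM to 44.5 to 58.8 CPM (log2 -1.25).

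Among the lower genes 3 work in the secretory pathway. Colgalt1, which glycosylates collagen in the endoplasmic reticulum, fell from 172 to 216 CPM to 58.5 to 88.1 CPM (log2 -1.36). Lman1, a lectin that carries glycoproteins from the endoplasmic reticulum to the Golgi, fell from 93 to 102 CPM to 46.2 to 63.8 CPM (log2 -0.78). Cog4, a subunit of the tether of vesicles at the Golgi, fell from 55.3 to 81.1 CPM to 38.5 to 40.4 CPM (log2 -0.81). The others were Wwc2, a Hippo pathway scaffold (log2 -0.97), Mib1, the ubiquitin ligase of Notch ligands (-0.84), Cmtm4, a membrane protein that stabilises PD-L1 (-0.95), and Ss18, a subunit of the BAF chromatin remodelling complex (-0.77). Adjusted p was between 1.27e-05 and 0.000148 for the 10 higher genes and between 4.3e-06 and 0.000157 for the 12 lower genes. All 22 remained called, in the same direction, under each of the 24 alternatives of processing that were run.

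**Figure D2:**
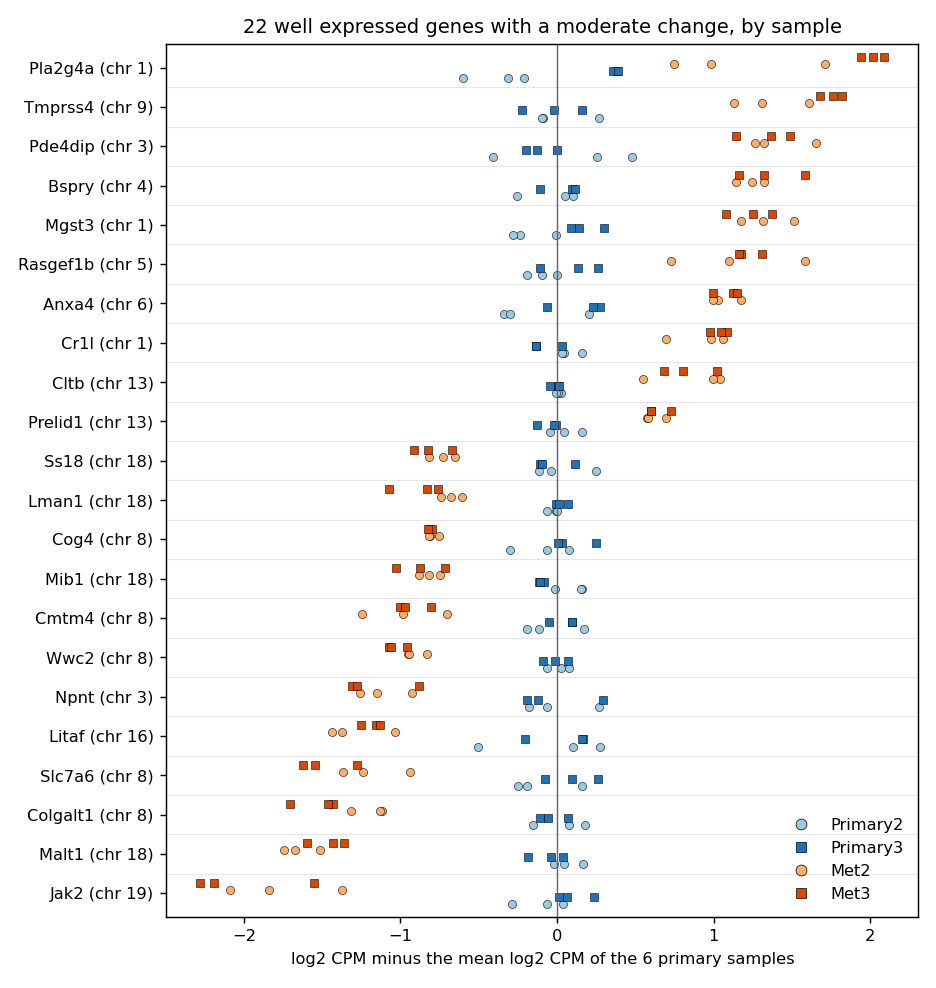
Each point is 1 of the 12 samples, on the x axis as log2 CPM minus the mean log2 CPM of the 6 primary samples, with 1 row per gene and its chromosome in brackets. The genes were chosen for having no overlap between primary and metastasis samples, and 9 of the 12 lower genes are on chromosomes 8 or 18.

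The position of these genes was uneven. Of the 147 moderate genes lower in metastasis, 46 (31.3%) were on chromosomes 8 or 18, which hold 8.92% of the well expressed genes. Of the 275 moderate genes higher in metastasis, 112 (40.7%) were on chromosomes 1, 5, 10 or 13, which hold 20.3%. These chromosomes were chosen after their values were seen. On chromosome 18, 158 of 375 genes tested were lower and 14 higher, so 42.1% were lower against 13.6% over all genes. Its genes with a mean of at least 10 CPM had a median log2 change of -0.42, and all 5 windows of 20 Mb were negative, with medians from -0.458 to -0.362. On chromosome 8, 257 of 777 genes were lower and 40 higher, with a median of -0.28 and all 7 windows negative. Chromosome X had 96 of 397 genes lower and 24 higher, with a median of -0.17.

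The reverse held for several chromosomes. On chromosome 1, 233 of 831 genes were higher and 73 lower, so 28% were higher against 13.4% over all genes. The median was 0.25, and all 9 windows were positive, with medians from 0.174 to 0.302. Chromosome 13 had 138 of 604 genes higher (22.8%, median 0.26) and chromosome 10 had 170 of 673 higher (25.3%, median 0.24). Chromosome 5 had 164 of 978 higher (median 0.26). Its 16.8% was nearer to the 13.4% over all genes and below the shares of chromosomes 6 (21%) and 15 (18.2%). Chromosome 9 had 180 of 809 higher (22.2%, median 0.19), but 2 of its 7 windows were negative, and the medians of the 7 ran from -0.35 to 0.367. All windows were positive on chromosomes 1, 5, 6, 10, 13 and 15 and negative on chromosomes 3, 8, 11, 18 and X, while the other 9 chromosomes had windows of both signs.

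Per sample, the median difference of chromosome 18 from the primary mean was -0.409, -0.465 and -0.403 in Met2 and -0.443, -0.342 and -0.382 in Met3. In the primary samples it ran from -0.095 to 0.127. The 6 metastasis samples were thus shifted by like amounts in both rounds. On chromosome 8 the metastasis samples ran from -0.311 to -0.235 and the primary samples from -0.167 to 0.117, where Primary2 replicates 1 and 2 were lowest. Chromosomes 1, 8, 9, 11, 13, 18 and X did not overlap between the 6 and 6 samples. Other chromosomes moved in single samples. Chromosome 5 was at 0.724 in Met2 replicate 1, at -0.12 and -0.119 in Met2 replicate 2 and Met3 replicate 2, and at 0.351 in Primary2 replicate 1. Chromosome 6 was at 0.325, 0.411 and 0.296 in Met2 replicates 1 and 2 and Met3 replicate 2, and between -0.0785 and 0.0587 in the other 3 metastasis samples. Met3 replicate 3 alone was at -0.427 on chromosome 3, 0.209 on chromosome 19 and -0.0245 on chromosome 10, where the other metastasis samples lay between 0.24 and 0.291. These are RNA values and hold no measure of DNA, and the cause of the chromosome-wide shifts was not tested.

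**Figure D3:**
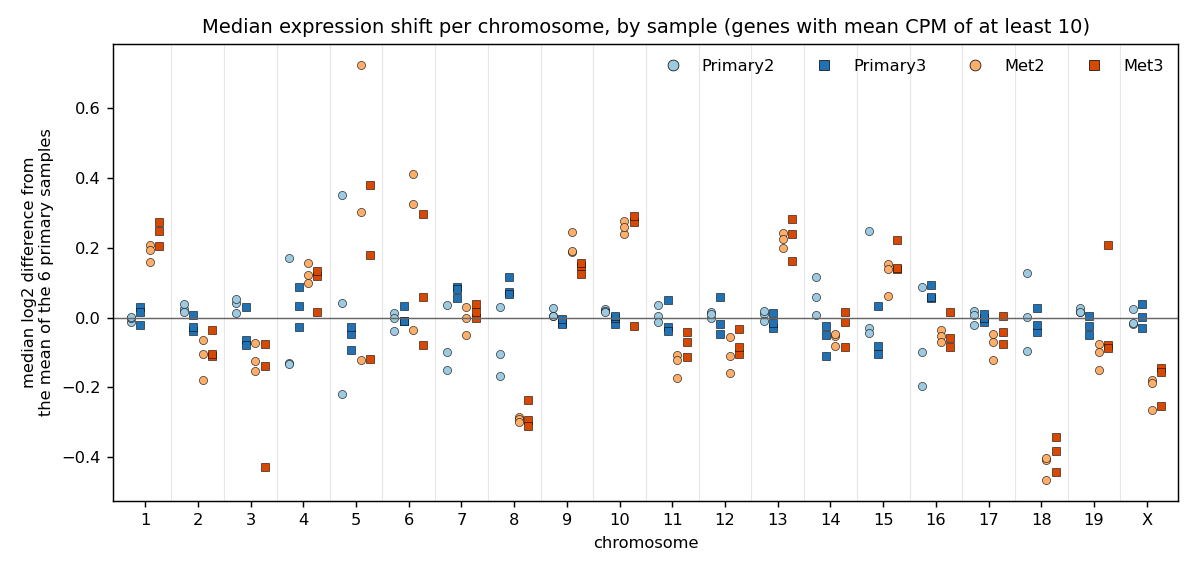
For each chromosome (x axis), the median over its genes of the log2 difference of a sample from the mean of the 6 primary samples (y axis), for genes with a mean of at least 10 CPM, 1 point per sample. Chromosomes 8 and 18 lie below 0 in all 6 metastasis samples, chromosomes 1, 9 and 13 above 0, and chromosome 5 in Met2 replicate 1 is at 0.724.

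To see what remains beside these shifts, the fit was repeated with every sample scaled within each chromosome, so that a gene is compared with the other genes of its chromosome. That fit called 1667 genes higher (11.5%) and 1699 lower (11.7%). It kept 2762 of the 3898 calls (70.9%), lost 1136 and gained 604. On chromosome 18 it called 50 lower and 45 higher, and on chromosome 8 it called 90 lower and 99 higher. Of the 422 moderate genes 364 were still called, but only 27 of the 46 that were lower on chromosomes 8 or 18. The named genes there kept their calls at smaller size, with Malt1 at -1.18 (SE 0.08), Colgalt1 at -1.07 (SE 0.07), Slc7a6 at -1.04 (SE 0.11), Lman1 at -0.41 (SE 0.08) and Ss18 at -0.39 (SE 0.08). Counts from this fit stand beside each gene list below, as those within chromosomes, and belong beside its own shares of 11.5% higher and 11.7% lower.

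Gata6, the gut transcription factor of the series title, lies on chromosome 18 and changed far more than its chromosome (log2 -4.92, SE 0.99, adjusted p = 0.00419, and -4.53 within its chromosome, adjusted p = 0.00762). Its level was low, at 3.04 to 9.56 CPM in primary and 0 to 1.20 CPM in metastasis samples. The change was -3.47 in round 2 (SE 1.04, adjusted p = 0.0596, not called) and -7.39 in round 3 (SE 1.36, adjusted p = 0.00646). Apc, also on chromosome 18, fell by 0.75 (SE 0.11, adjusted p = 0.000969), and by 0.38 within its chromosome (adjusted p = 0.0286). Trp53 on chromosome 11 had a log2 change of -0.50 (SE 0.16, adjusted p = 0.0371). Its call was lost within its chromosome (adjusted p = 0.0796), with no filter on low counts (0.144), without Met2 replicate 2 (0.0789) or 3 (0.0728), Met3 replicate 1 (0.0779) or 2 (0.0665), Primary2 replicate 2 (0.0629) or 3 (0.0799), and Primary3 replicate 1 (0.0925) or 3 (0.0606). The engineered part of Apc and Trp53 is not given in the labels, so these levels do not check the genotype.

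Of 31 tested genes of epithelial ion and metal transport, 3 were higher and 7 lower in metastasis (9.68% and 22.6%, beside 13.4% and 13.6% over all genes). Within chromosomes 3 were higher and 5 lower, and without Met2 replicate 1, 7 were higher. Ion carriers of colon epithelium were among the lower ones. Slc4a4, a sodium bicarbonate cotransporter, fell from 12.2 to 40.8 CPM in primary to 0.65 to 7.36 CPM in metastasis samples (log2 -3.46, SE 0.52, adjusted p = 0.000915). Kcne3, a potassium channel subunit that serves chloride secretion in colon crypts, fell from 98.1 to 212 CPM to 39.4 to 85.3 CPM (log2 -1.32, SE 0.23, adjusted p = 0.00186).

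The 3 higher genes of the list were all of zinc and metal handling. Metallothioneins are small cysteine-rich proteins that bind zinc, copper and cadmium, and their genes are switched on by the zinc sensor MTF1 through metal response elements in their promoters. Slc30a1 encodes the exporter ZnT1, which moves zinc out of the cell and is a target of the same factor, and Slc39a4 encodes the importer Zip4, whose mRNA is lowered when zinc is plentiful. The promoters of the 3 genes that rose are shown because they carry the core of that element. Each is the 300 bases from 250 before to 50 after the RefSeq start (GRCm38.p6, plus strand), at chr8:94178839-94179138 for Mt1, chr8:94172368-94172667 for Mt2 and chr1:191906531-191906830 for Slc30a1, with matches to TGCACNC or TGCGCNC on either strand in capitals.
Mt1: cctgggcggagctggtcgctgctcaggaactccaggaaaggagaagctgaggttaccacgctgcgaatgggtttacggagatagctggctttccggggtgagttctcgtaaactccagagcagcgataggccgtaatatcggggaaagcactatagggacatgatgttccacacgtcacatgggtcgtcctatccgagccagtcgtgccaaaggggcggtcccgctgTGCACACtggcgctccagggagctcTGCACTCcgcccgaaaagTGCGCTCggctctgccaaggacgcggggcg
Mt2: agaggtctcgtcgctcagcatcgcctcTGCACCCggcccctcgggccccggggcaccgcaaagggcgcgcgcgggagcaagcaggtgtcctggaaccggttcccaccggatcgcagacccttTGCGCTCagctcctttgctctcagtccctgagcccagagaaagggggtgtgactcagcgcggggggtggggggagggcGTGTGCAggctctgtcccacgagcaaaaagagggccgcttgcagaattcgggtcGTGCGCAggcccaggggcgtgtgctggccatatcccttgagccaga
Slc30a1: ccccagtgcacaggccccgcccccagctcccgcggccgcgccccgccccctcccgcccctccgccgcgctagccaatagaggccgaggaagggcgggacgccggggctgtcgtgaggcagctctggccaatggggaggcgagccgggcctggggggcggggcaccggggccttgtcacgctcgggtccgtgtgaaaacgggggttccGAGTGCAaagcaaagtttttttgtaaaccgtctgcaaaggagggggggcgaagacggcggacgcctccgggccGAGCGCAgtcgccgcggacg
The Mt1 window held 3 matches, the Mt2 window 4 and the Slc30a1 window 2, and none of these bases was shared with another motif searched. At least 1 match was present in 25.7% of all 32851 promoters of the table and in 13 of 26 promoters of the transport list (50%). Across the other lists the share ran from 4.76% in amino acid transporters to 54% in splicing factors. A match thus describes the sequence and shows no binding.

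Mt1 (ENSMUSG00000031765, GRCm38 chromosome 8, 94179082 to 94180327) stood at 30.4, 49.3 and 49.9 CPM in Primary2 and 57.6, 79.7 and 64.7 in Primary3. In metastasis it stood at 321, 250 and 142 CPM in Met2 and 203, 146 and 267 in Met3. The lowest metastasis sample was above the highest primary sample, and the log2 change was 2.03 (SE 0.26, adjusted p = 0.000324). Mt2, its neighbour on the chromosome, was at 7.07, 8.07 and 12.8 CPM in Primary2 and 27.3, 28.6 and 28.1 in Primary3, against 328, 288 and 98.6 in Met2 and 160, 98.3 and 305 in Met3 (log2 3.70, SE 0.48, adjusted p = 0.000351). Both rose although the median of chromosome 8 fell, and both mRNAs are alike enough that the quantifier may have divided shared reads between them. The zinc exporter Slc30a1 ran from 3.94 to 8.07 CPM in primary, 9.73 to 18.4 in Met2 and 22.3 to 31.5 in Met3 (log2 1.63, SE 0.29, adjusted p = 0.0024). The importer Slc39a4 moved the other way, from 42.3 to 161 CPM in primary to 1.41 to 31.7 CPM in metastasis samples, with no overlap (log2 -2.77, SE 0.62, adjusted p = 0.00709). Mt1, Mt2 and Slc30a1 were the 3 genes of the transport list that rose. Slc30a1 and Slc39a4 were not among the 4 members of the list with the smallest p. Both were chosen after their values were seen and were not followed gene by gene under the alternatives of processing. These values are mRNA levels, and whether zinc or MTF1 took part in the changes was not tested. The iron exporter Slc40a1, which is no zinc transporter and was chosen after its values were seen, fell by 1.49 (SE 0.40, adjusted p = 0.0166).

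Of 23 tested glycolysis genes 10 were higher in metastasis (43.5%), 1 was lower (4.35%) and 12 were not called, beside 13.4% higher and 13.6% lower over all genes. The list's median log2 change was 0.30, beside 0.03 over all genes tested, and within chromosomes 8 were higher and 1 lower. A rise of glycolysis and hypoxia genes was already known in these data, so the count gives no independent support. What the members show is a small change on very abundant mRNAs. Pkm, the pyruvate kinase that makes the final pyruvate, was at 3457, 4746 and 3953 CPM in Primary2 and 3475, 4341 and 3989 in Primary3. It rose to 5626, 6222 and 5305 in Met2 and 5954, 6432 and 6054 in Met3, with no overlap (log2 0.57, SE 0.09, adjusted p = 0.00151). Gapdh ran from 3353 to 4609 CPM in primary and 4729 to 6563 in metastasis samples (log2 0.59, SE 0.12, adjusted p = 0.00371). Summed over the 23 genes, glycolysis mRNA took 18287 to 27478 CPM in primary and 27718 to 32620 CPM in metastasis samples. The list's median per sample overlapped between the sides, at -0.317 to 0.269 in primary and 0.191 to 0.452 in metastasis samples. The primary samples were spread, since replicate 1 of Primary2 and of Primary3 was lower than the other primary samples, at medians of -0.265 and -0.317 log2 against the primary mean.

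The mRNAs of a glucose importer and a lactate exporter changed in opposite directions. Slc2a1, the glucose transporter Glut1, ran from 110 to 221 CPM in primary and 282 to 501 in metastasis samples (log2 1.17, SE 0.20, adjusted p = 0.00195). Hk1, the hexokinase that traps glucose in the cell, rose by 1.06 (SE 0.19, adjusted p = 0.00238), with Met2 replicate 1 at 132 CPM inside the primary range of 76.8 to 133 CPM. The lactate exporter Slc16a3 was the only glycolysis gene that fell (log2 -1.42, SE 0.32, adjusted p = 0.00777), and it was chosen for description after its value was seen. Its levels were 307, 528 and 470 CPM in Primary2 and 234, 445 and 393 in Primary3, against 349, 118 and 239 in Met2 and 60.9, 89.7 and 125 in Met3. All 3 Met3 samples were below every primary sample, while Met2 replicates 1 and 3 lay within the primary range. Without Met2 replicate 1, with limma-voom or with all 15 samples in the fit, 2 genes of the list fell.

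**Figure D4:**
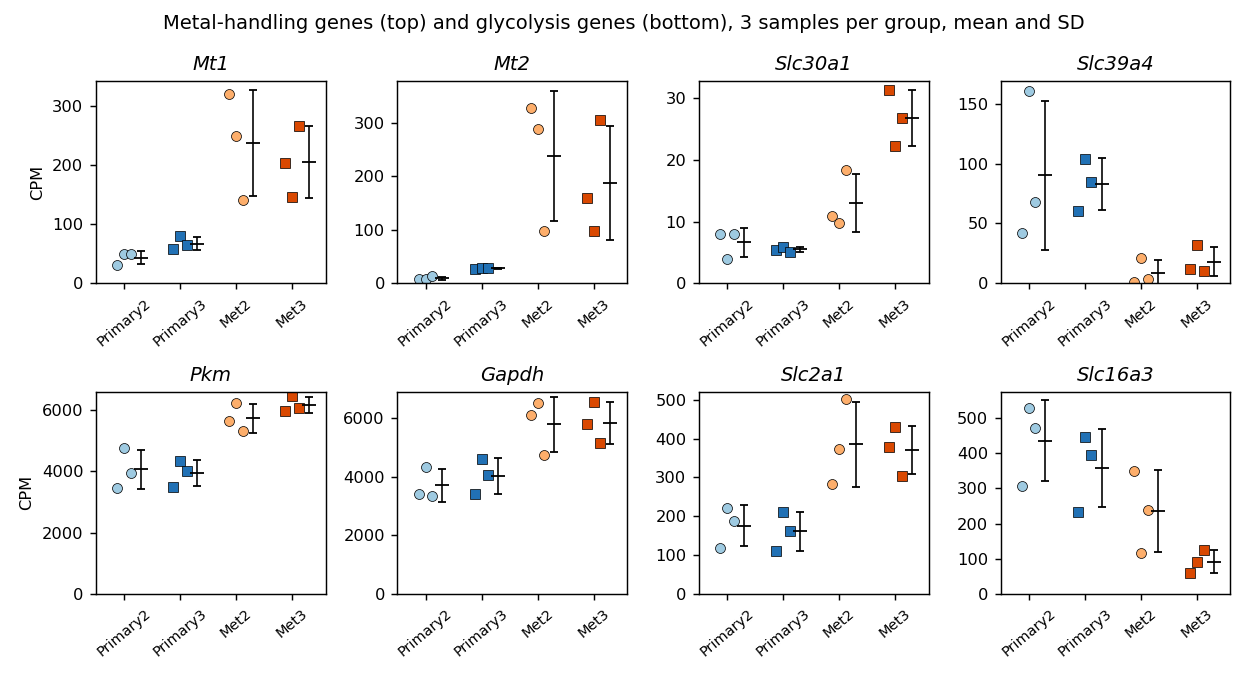
Expression in CPM (y axis, from 0) of 4 metal-handling genes in the upper row and 4 glycolysis genes in the lower row, with 3 samples per group as points and their mean and SD as the bar beside them. Mt1, Mt2, Slc30a1, Pkm, Gapdh and Slc2a1 are higher in all 6 metastasis samples than in any primary sample, and Slc39a4 is lower in all 6.

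Hypoxia genes outside glycolysis gave a less even picture. HIF1, the oxygen-regulated factor, binds a core of ACGTG, and 2 promoters that hold this core are shown for a gene of glucose uptake and a gene of acid handling (300 bases each, GRCm38.p6, plus strand, chr4:119108495-119108794 for Slc2a1 and chr4:43506776-43507075 for Car9, with the core or its reverse complement in capitals).
Slc2a1: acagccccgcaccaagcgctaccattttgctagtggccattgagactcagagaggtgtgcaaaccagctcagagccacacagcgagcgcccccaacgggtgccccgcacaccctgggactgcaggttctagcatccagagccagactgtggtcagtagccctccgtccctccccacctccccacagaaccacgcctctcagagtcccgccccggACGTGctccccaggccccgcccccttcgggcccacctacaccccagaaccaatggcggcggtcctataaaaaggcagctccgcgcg
Car9: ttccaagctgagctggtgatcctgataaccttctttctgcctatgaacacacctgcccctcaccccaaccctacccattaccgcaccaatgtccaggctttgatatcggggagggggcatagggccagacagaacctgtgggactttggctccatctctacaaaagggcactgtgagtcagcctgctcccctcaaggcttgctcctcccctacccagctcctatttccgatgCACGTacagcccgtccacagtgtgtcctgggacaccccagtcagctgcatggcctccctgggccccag
The core was in 19.6% of all promoters of the table, in 19 of 37 promoters of the glycolysis list (51.4%) and in 15 of 26 of the other hypoxia genes (57.7%). The glycolysis list had 22 of 23 genes and the hypoxia list 17 of 21 in the table, some with several promoters. Of the promoters of glycolysis genes that rose, 9 of 18 held the core, and promoters of other lists held it too. The list of vesicle coat proteins had the highest share, with 20 of 29 (69%), the tRNA synthetases had 6 of 12 (50%), the citric acid cycle list 11 of 26 (42.3%), and fatty acid oxidation the lowest, with 1 of 17 (5.88%). Among 21 tested hypoxia genes 5 were higher and 1 lower (23.8% and 4.76%, beside 13.4% and 13.6% over all genes). The median was 0.44, with 0.90 in round 2 and -0.10 in round 3. Within chromosomes 5 were higher and 0 lower.

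Car9, the carbonic anhydrase of the cell surface, stood at 0.419 to 0.945 CPM in all primary samples and at 5.96, 8.76 and 2.31 in Met2 and 8.87, 1.39 and 0.258 in Met3, where replicate 3 was below the primary samples (log2 2.70, SE 0.70, adjusted p = 0.0147). That call was lost without Met3 replicate 1 (1.97, adjusted p = 0.0849) and with limma-voom (2.20, adjusted p = 0.081). Kdm3a, a histone demethylase induced by HIF1, rose by 0.71 (SE 0.19, adjusted p = 0.0185), with overlap. Plod2, the lysyl hydroxylase of collagen, had a log2 change of 2.49 (adjusted p = 0.0263), with Met2 replicate 1 at 44 CPM and the other metastasis samples between 2.07 and 18.8. Its call was lost without Met2 replicate 1 (1.70, adjusted p = 0.0534), Met3 replicate 2 (0.0864), Primary2 replicate 1 (0.0518) or 3 (0.0577), or Primary3 replicate 1 (0.052), and with limma-voom (0.0733). P4ha2, a collagen prolyl hydroxylase, was the 1 lower gene (-1.19, adjusted p = 0.0277), and its call was lost without Met3 replicate 2 (0.0636) or 3 (0.058), Primary2 replicate 2 (0.0663), or Primary3 replicate 2 (0.0635) or 3 (0.0582), and within its chromosome (0.0539). The number of higher genes fell to 2 without Met3 replicate 2 or Primary2 replicate 3 and to 3 without Met2 replicate 3, Primary2 replicate 1 or Primary3 replicate 1.

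Mitochondrial fuel use showed no common direction. Fatty acid oxidation had 4 of 21 genes higher and 4 lower (19% each, beside 13.4% and 13.6% over all genes), and 5 and 3 within chromosomes. Acadl, the long-chain acyl-CoA dehydrogenase, rose from 76.9 to 134 CPM in primary to 160 to 214 CPM in metastasis samples (log2 0.90, SE 0.14, adjusted p = 0.000941). The electron carrier Etfb also rose, from 49.4 to 62.9 CPM to 79.8 to 104 CPM (log2 0.69, SE 0.10, adjusted p = 0.000622), as did its partner Etfa (0.53, SE 0.10, adjusted p = 0.00299). The peroxisomal enzyme Hsd17b4 on chromosome 18 fell by 0.71 (SE 0.08, adjusted p = 0.000227), and by 0.33 within its chromosome (adjusted p = 0.0142). The citric acid cycle list had 4 of 23 genes higher and 2 lower (17.4% and 8.7%), and 1 and 1 within chromosomes. In that fit the call of Sdhc was lost (0.19, adjusted p = 0.119, from 0.40) and that of Idh3b too (-0.25, adjusted p = 0.0537, from -0.39). With each sample left out in turn 1 to 4 were higher and 1 to 2 lower, 1 and 1 with no filter on low counts, and 2 were higher with upper quartile scaling or with the ribosomal RNA gene left out. In nucleotide synthesis 1 of 27 genes was higher and 3 lower (3.7% and 11.1%), 1 and 4 within chromosomes, and 5 were lower with DESeq2. Ctps, the CTP synthase, fell from 109 to 161 CPM to 78.2 to 92.1 CPM (log2 -0.72, SE 0.10, adjusted p = 0.000498). The purine enzyme Paics fell by 0.38 (SE 0.08, adjusted p = 0.00591) without overlap. The higher one was Pgd, of the pentose phosphate pathway (0.55, SE 0.11, adjusted p = 0.0053), and without Met2 replicate 1 there were 2.

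In serine and one-carbon metabolism 4 of 18 genes were higher (22.2%) and 0 lower, beside 13.4% and 13.6% over all genes, led by the mitochondrial folate enzyme Mthfd2 (0.43, SE 0.10, adjusted p = 0.00849), whose call was lost within its chromosome (0.27, adjusted p = 0.153). Within chromosomes 2 were higher and 0 lower, and with no filter on low counts 2 were higher. DESeq2 called 1 lower. The number of higher genes fell to 1 without Met2 replicate 2, Primary3 replicate 1 or Primary3 replicate 3. Amino acid transporters had 4 of 16 genes higher (25%) and 2 lower (12.5%), the same counts as within chromosomes. The amino acid response motif TGATGNAA was in 3 of 21 promoters of the transporters (14.3%), in 5 of 12 of the tRNA synthetases (41.7%) and in 3.97% of all promoters. Beside Slc7a6, which fell, the related transporter Slc7a7 rose by 0.84 (SE 0.21, adjusted p = 0.0117) and the glutamine carrier Slc38a2 by 0.86 (SE 0.23, adjusted p = 0.0158). The number of higher transporters fell to 2 without Met2 replicate 3, Met3 replicate 1, Primary3 replicate 1 or Primary3 replicate 3. Of 19 tRNA synthetases 1 was higher and 3 lower (5.26% and 15.8%). The 3 were Kars on chromosome 8 and Hars and Lars on chromosome 18, with log2 changes of -0.51, -0.58 and -0.58, and within their chromosomes none of the 3 was called (-0.23, -0.20 and -0.20). With each sample left out in turn 0 to 3 synthetases were higher. Within chromosomes 2 were higher and 2 lower, 0 were higher with the ribosomal RNA gene left out, with either other scaling or with no filter on low counts, and 5 were lower with DESeq2 or upper quartile scaling.

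Ribosome biogenesis had 1 of 34 genes higher and 1 lower, also within chromosomes, well under the share over all genes. Nop16, a nucleolar protein, was the higher one (0.58, SE 0.10, adjusted p = 0.00156), and the lower count was 0 to 1 with each sample left out in turn. Translation factors had 6 of 40 higher and 2 lower (15% and 5%), and without Met3 replicate 3 the lower ones were 5. Within chromosomes 4 were higher and 1 lower, and with no filter on low counts 2 were higher. Eif1, which selects the start codon, rose by 0.43 (SE 0.08, adjusted p = 0.00285) and the eIF3 subunit Eif3f fell by 0.67 (SE 0.10, adjusted p = 0.000883), both without overlap. The mitochondrial ribosome had 15 of 78 genes higher and 3 lower (19.2% and 3.85%, beside 13.4% and 13.6% over all genes). Its median was 0.11, beside 0.03 over all genes tested. Mrps6, of its small subunit, was at 21.7 to 29.5 CPM in primary and 36 to 53.5 CPM in metastasis samples (log2 0.82, SE 0.10, adjusted p = 0.000334), and Mrpl4 and Mrpl52, of the large subunit, rose by 0.64 (SE 0.12) and 0.46 (SE 0.09). Within chromosomes 9 were higher and 1 lower, and with no filter on low counts 7 and 1. Of the lower ones 1 was left without Met2 replicate 2 or 3, Met3 replicate 1, Primary2 replicate 1 or 2, or Primary3 replicate 1.

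Of 29 genes of protein folding and degradation in the endoplasmic reticulum (ER), 8 were higher (27.6%), 2 lower (6.9%) and 19 not called, beside 13.4% higher and 13.6% lower over all genes. The list's median was 0.24, and within chromosomes 10 were higher and 1 lower. Per sample the median ran from -0.139 to 0.114 in primary and from 0.0762 to 0.355 in metastasis samples, with overlap. Edem1, a lectin that targets misfolded glycoproteins for degradation, ran from 49.1 to 65.4 CPM in primary and 75.5 to 115 in metastasis samples (log2 0.75, SE 0.12, adjusted p = 0.00129). Sec61b, a subunit of the channel through which proteins enter the ER, ran from 142 to 210 and from 234 to 308 CPM (0.58, SE 0.10, adjusted p = 0.00203). The chaperone-like Creld2 rose by 0.52 (SE 0.11, adjusted p = 0.00528). The ER chaperone calnexin, Canx, went the other way, from 402 to 483 CPM in primary to 303 to 369 CPM in metastasis samples (-0.38, SE 0.08, adjusted p = 0.0042). The other lower gene was Edem2 (-0.51, SE 0.15, adjusted p = 0.0235), chosen after its value was seen. The 2 lower genes were 1 without Primary2 replicate 2 or 3 or Primary3 replicate 2 or 3.

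Coat proteins of ER and Golgi vesicles (COPI and COPII) had 6 of 31 genes higher and 1 lower (19.4% and 3.23%, beside 13.4% and 13.6% over all genes). The median was 0.20, and within chromosomes 4 were higher and 1 lower. Per sample, the list's median lay between 0.0713 and 0.306 in metastasis samples and between -0.0632 and 0.0627 in primary samples, with no overlap. Arcn1, the delta subunit of COPI, rose by 0.37 (SE 0.07, adjusted p = 0.0032), Copg2 by 0.54 (SE 0.12, adjusted p = 0.00679) and Tmed9, a cargo receptor, by 0.29 (SE 0.07, adjusted p = 0.00721). The call of Tmed9 was lost within its chromosome (0.07, adjusted p = 0.488) and with no filter on low counts (0.27, adjusted p = 0.0862), where 3 genes of the list were higher. The 1 lower gene was Lman1, described above. Cytosolic chaperones had 1 of 24 genes higher and 2 lower (4.17% and 8.33%) and the proteasome 1 of 31 higher and 3 lower (3.23% and 9.68%). The chaperone Hsp90aa1 fell by 0.44 (SE 0.09, adjusted p = 0.00467) and the proteasome subunit Psmb7 by 0.81 (SE 0.22, adjusted p = 0.0171). Within chromosomes the chaperones had 0 higher and 2 lower and the proteasome 1 and 2. With each sample left out in turn the chaperones had 1 to 3 higher and 1 to 5 lower, and with DESeq2 2 and 4.

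Lysosomal genes split by member. Of 31, 5 were higher and 8 lower, the latter 25.8% against 13.6% over all genes, and within chromosomes 5 and 5. Hexa, a subunit of the hexosaminidase that degrades gangliosides, rose from 5.13 to 11.1 CPM in primary to 16.6 to 35.1 CPM in metastasis samples (log2 1.88, SE 0.25, adjusted p = 0.000406). Asah1, the acid ceramidase on chromosome 8, fell by 0.82 (SE 0.12, adjusted p = 0.000803) and by 0.54 within its chromosome (adjusted p = 0.00384). The protease Tpp1 fell by 0.41 (SE 0.08, adjusted p = 0.00312), and the membrane protein Lamp1 on chromosome 8 by 0.59 (SE 0.12, adjusted p = 0.00541), a call lost within its chromosome (-0.30, adjusted p = 0.0561). Autophagy had 4 of 29 genes higher and 5 lower (13.8% and 17.2%, beside 13.4% and 13.6% over all genes). Within chromosomes 3 were higher and 4 lower, and 2 and 3 with no filter on low counts. Atg16l2 was lowest of these, from a mean of 16.4 CPM in primary to 4.45 in metastasis (-1.84, SE 0.29, adjusted p = 0.00113), and the number of higher genes fell to 1 without Met3 replicate 2 and to 2 without Primary2 replicate 1.

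Among NRF2 targets and antioxidant enzymes 3 of 27 were higher and 3 lower (11.1% each, beside 13.4% and 13.6% over all genes). Within chromosomes 4 were higher and 3 lower. NRF2, encoded by Nfe2l2, is the factor of the oxidative stress response, and KEAP1 holds it back. The cystine importer Slc7a11, which feeds glutathione synthesis, fell from 165, 228 and 212 CPM in Primary2 and 145, 184 and 206 in Primary3 to 73.3, 38.9 and 81.2 in Met2 and 40.5, 64.6 and 61.4 in Met3 (log2 -1.66, SE 0.19, adjusted p = 0.000175). Me1, the malic enzyme that makes NADPH, fell from 122 to 285 CPM to 54 to 102 CPM (-1.25, SE 0.20, adjusted p = 0.00139). Gclm, a subunit of the enzyme that starts glutathione synthesis, fell by 0.44 (SE 0.09, adjusted p = 0.00608). Keap1 rose by 0.52 (SE 0.08, adjusted p = 0.000755), from 39.7 to 54.8 CPM to 61.8 to 77.3 CPM. The list's median was 0.14 and 19 of its 27 genes had a positive change, so the lower genes named here do not stand for the list. Without Met2 replicate 1, 8 genes were higher, and 5 were higher with the share of ribosomal RNA as a covariate.

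Of 37 tested genes of focal adhesion and actin, 9 were lower (24.3%) and 5 higher (13.5%), beside 13.6% and 13.4% over all genes, and within chromosomes 9 and 5. The list's median per sample overlapped, at -0.224 to 0.105 in primary and -0.342 to 0.0351 in metastasis samples. Without Met2 replicate 1, 14 were lower. The TEAD motif GGAATG was in 10 of 38 promoters of the list (26.3%) against 14.7% of all promoters, and the AP-1 motif TGANTCA in 4 of 38 (10.5%) against 7.81%. Integrin-linked adhesion had Parva, a partner of integrin-linked kinase, at 80.5 to 92.5 CPM in primary and 43.7 to 65.3 CPM in metastasis samples (log2 -0.73, SE 0.10, adjusted p = 0.000525). The contractile genes Tpm1, a tropomyosin, and Cald1, caldesmon, fell by 0.78 (SE 0.12, adjusted p = 0.000813) and 3.67 (SE 0.53, adjusted p = 0.000718). Itgb1, the integrin beta-1 chain on chromosome 8 that was chosen after its values were seen, ran from 652 to 1298 CPM in primary and from 294 to 611 CPM in metastasis samples (-1.03, SE 0.20, adjusted p = 0.00383; -0.74 within its chromosome, adjusted p = 0.0145). Pxn, the adaptor paxillin, went the other way and rose from 70.7 to 97.9 CPM to 123 to 230 CPM (0.97, SE 0.16, adjusted p = 0.00145).

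Cell junction genes had 4 of 29 higher and 3 lower (13.8% and 10.3%, beside 13.4% and 13.6% over all genes). Within chromosomes 3 were higher and 3 lower, and 2 were higher with the ribosomal RNA share as a covariate. DESeq2 called 7 lower and upper quartile scaling 6. Beta-catenin, encoded by Ctnnb1 and both a junction protein and the effector of Wnt signalling, fell from 706 to 864 CPM in primary to 367 to 671 CPM in metastasis samples (log2 -0.69, SE 0.14, adjusted p = 0.00457). The polarity gene Pard3 fell by 0.73 (SE 0.14, adjusted p = 0.00334). The desmosomal plakin genes Ppl and Dsp rose by 1.13 (SE 0.24, adjusted p = 0.00564) and 0.84 (SE 0.20, adjusted p = 0.0111), and the call of Dsp was lost within its chromosome (0.61, adjusted p = 0.052). The number of higher genes fell to 2 without Met2 replicate 2 or 3, Met3 replicate 1 or 2, Primary2 replicate 1, or any replicate of Primary3. Of 30 semaphorin, plexin, netrin and slit genes, which guide axons and cells, 4 were higher and 5 lower (13.3% and 16.7%). Within chromosomes 3 were higher and 7 lower. DESeq2 called 9 higher. Sema3c fell from 398 to 221 CPM on average (-0.86, SE 0.16, adjusted p = 0.00322). Sema6a, Nrp1 and Sema4g, with means of 15.5, 5.74 and 5.67 CPM in primary and 0.766, 0.343 and 1.5 in metastasis, fell by 4.34, 4.04 and 1.91. The number of higher guidance genes fell to 1 without Met3 replicate 3 and to 2 without Met3 replicate 2 or any replicate of Primary3.

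Of 35 cytokine signalling genes, 6 were higher and 7 lower (17.1% and 20%, beside 13.4% and 13.6% over all genes). Beside Jak2, which fell, the related kinase Tyk2 rose from 17.1 to 27 CPM in primary to 34.7 to 42.2 CPM in metastasis samples (log2 0.71, SE 0.12, adjusted p = 0.00164). The receptor chain Il10rb, which works with Tyk2, rose by 0.71 (SE 0.13, adjusted p = 0.00242), with 1 Met3 sample inside the primary range. Socs5, an inhibitor of cytokine signalling, fell by 0.73 (SE 0.10, adjusted p = 0.000387). Within chromosomes 5 were higher and 8 lower, and without Primary3 replicate 1, 4 were lower. Notch pathway genes had 4 of 24 higher and 6 lower (16.7% and 25%), and 3 and 8 within chromosomes. With no filter on low counts 2 were higher. The receptor Notch1 stood at 17.6 to 27.9 CPM in primary and 0.201 to 6.1 CPM in metastasis samples (-2.76, SE 0.55, adjusted p = 0.00395), and the ligand Jag2 fell by 0.64 (SE 0.12, adjusted p = 0.00325). Another ligand, Dll1, rose from a mean of 0.111 to 1.48 CPM (3.59, SE 0.75, adjusted p = 0.00506). The number of higher Notch genes fell to 2 without Met2 replicate 2, Met3 replicate 1 or 2, Primary2 replicate 2, or Primary3 replicate 1 or 2.

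Insulin and PI3K signalling had 2 of 33 genes higher and 5 lower (6.06% and 15.2%, beside 13.4% and 13.6% over all genes). Within chromosomes 3 were higher and 5 lower. DESeq2 called 4 higher and the fit with no filter on low counts 1. Inpp4b, a phosphatase of PI3K products on chromosome 8, fell from 18.2 to 46 CPM to 1.17 to 5.09 CPM (log2 -3.39, SE 0.36, adjusted p = 0.000115). Phlpp1, a phosphatase of AKT, fell by 0.80 (SE 0.16, adjusted p = 0.00373), and Pik3ca, the catalytic subunit of PI3K, by 0.48 (SE 0.12, adjusted p = 0.0104). The higher genes were 5 without Met2 replicate 1 and 1 without Met3 replicate 1 or 2 or Primary3 replicate 3.

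Of 32 apoptosis regulators 7 were higher (21.9%), 1 lower (3.12%) and 24 not called, beside 13.4% higher and 13.6% lower over all genes, with a median of 0.24. The list's median per sample ran from 0.117 to 0.27 in metastasis and from -0.188 to 0.0877 in primary samples, with no overlap. Genes of the death receptor branch and of the BCL2 family were both among them. Tnfrsf1a, the TNF receptor, ran from 29.9 to 49.1 CPM in primary and 50.8 to 70 CPM in metastasis samples (log2 0.62, SE 0.10, adjusted p = 0.00148). Ripk1, the kinase below it, ran from 35.2 to 40.4 and from 44 to 58.7 CPM (0.49, SE 0.09, adjusted p = 0.0022). The BH3-only gene Bad rose by 0.55 (SE 0.10, adjusted p = 0.00237), and Bok, a pore-forming BCL2 relative, from 46.9 to 67.4 CPM to 87.8 to 164 CPM (0.83, SE 0.15, adjusted p = 0.00249). Within chromosomes 5 were higher and 2 lower. Without Met2 replicate 1, 11 were higher, and 2 were lower without Met2 replicate 1 or 3 or Met3 replicate 3 or with DESeq2, and 3 with limma-voom.

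Of 24 nuclear receptors 3 were higher and 0 lower (12.5% and 0%), and without Met2 replicate 1, 8 were higher and 3 lower. Within chromosomes 4 were higher and 1 lower, and DESeq2 called 2 lower and limma-voom 1. Pparg, the lipid-sensing receptor of differentiated colon epithelium, rose from 5.15 to 28.5 CPM in primary to 29.2 to 104 CPM in metastasis samples (log2 2.14, SE 0.40, adjusted p = 0.00278). Hnf4g, a gut and kidney relative of Hnf4a, was at 0 to 0.157 CPM in primary, 0, 1.23 and 2.24 in Met2 and 6.06, 5.63 and 2.84 in Met3 (4.48, SE 0.92, adjusted p = 0.00471), with Met2 replicate 1 at 0. The clock repressor Nr1d1 rose by 0.94 (SE 0.23, adjusted p = 0.0114), a call lost with no round block (0.0537). The circadian clock had 2 of 17 genes higher and 1 lower, DNA and histone methylation 5 of 37 higher and 4 lower, and splicing factors 4 of 40 higher and 3 lower, all near the shares of 13.4% and 13.6% over all genes or under them. Cry1, a clock repressor, rose by 0.63 (SE 0.12, adjusted p = 0.00355), and Arntl2, a partner of CLOCK, fell by 1.26 (SE 0.24, adjusted p = 0.00297). Setd7, a lysine methyltransferase, fell by 1.35 (SE 0.15, adjusted p = 0.000146), Hnrnph1, a splicing regulator, by 0.48 (SE 0.09, adjusted p = 0.00263), and Esrp1, the epithelial splicing regulator, rose by 0.53 (SE 0.12, adjusted p = 0.00771). With each sample left out in turn the higher genes numbered 1 to 2 in the clock, 2 to 6 in methylation and 1 to 5 in splicing. Within chromosomes the clock had 1 higher and 2 lower, methylation 4 and 5 and splicing 3 and 2. With no filter on low counts 1, 3 and 1 were higher, and methylation had 3 higher with limma-voom or with the ribosomal RNA gene left out.

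**Figure D5:**
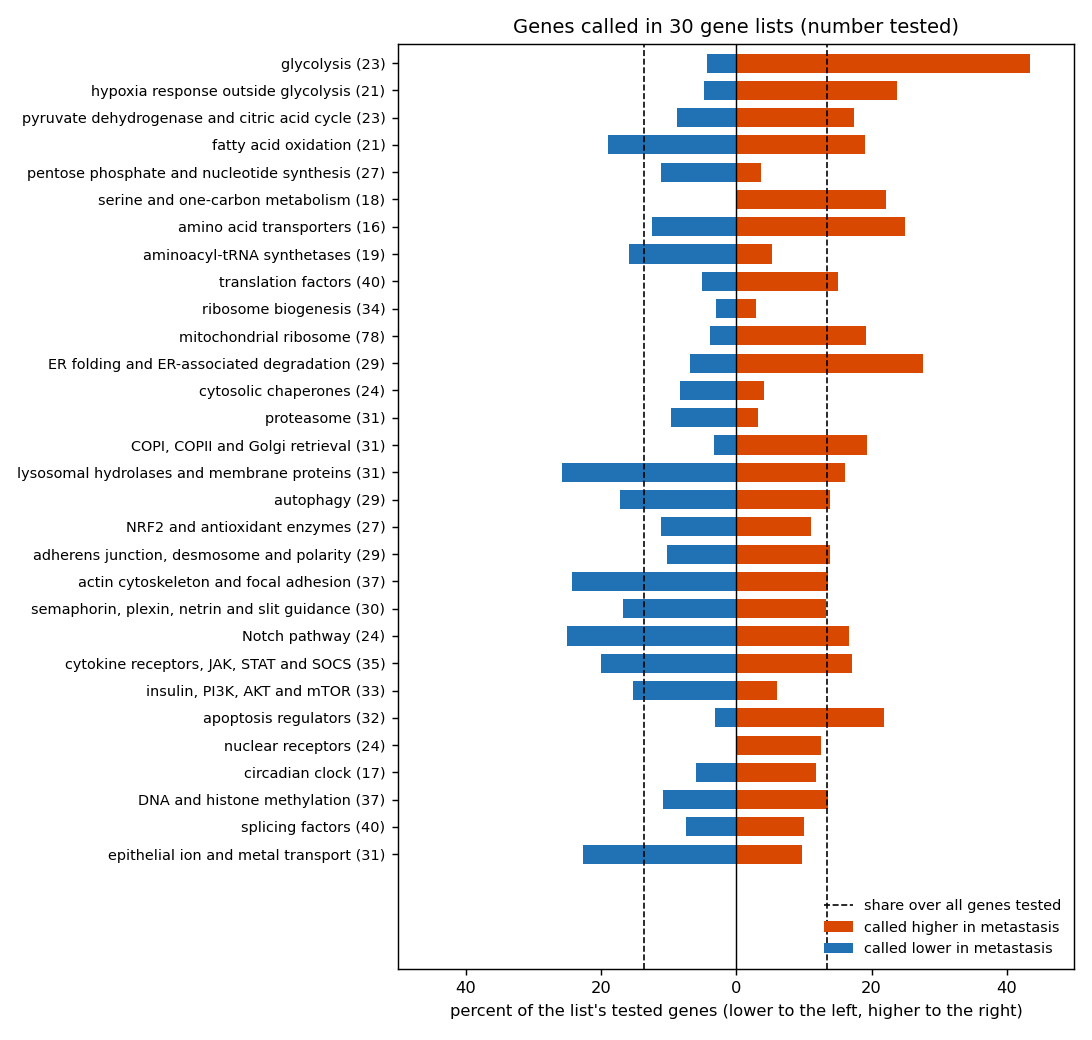
Percent of each list's tested genes (x axis, number tested in brackets) called higher in metastasis to the right in orange and lower to the left in blue, for 30 gene lists, with dashed lines at the shares over all genes, 13.4% higher and 13.6% lower. Glycolysis reaches 43.5% higher, ER folding 27.6%, and lysosomal genes 25.8% lower.

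The marker genes moved as follows beside these groups. Of 13 tested epithelial and colonic markers 4 were higher and 0 lower (30.8% and 0%, beside 13.4% and 13.6% over all genes). Cdx2, the factor of intestinal identity, ran from 12.9 to 29.6 CPM in primary and 69.6 to 109 CPM in metastasis samples (log2 2.05, SE 0.19, adjusted p = 5.46e-05), and the keratin Krt8 rose by 1.61 (SE 0.31, adjusted p = 0.00322), with Met2 replicate 1 at 823 CPM inside the primary range of 740 to 1265 CPM. Of 4 tested immune markers 2 were lower and 1 higher. Csf1r fell from 1.65 to 7.75 CPM to 0 to 0.348 CPM (-4.46, SE 0.58) and Cd74 from 2.78 to 9.87 CPM to 0.217 to 1.94 CPM (-2.91, SE 0.55), while Cd68, a lysosomal protein of macrophages, had means of 7.27 and 14.8 CPM (0.98, SE 0.31, adjusted p = 0.0343). The call of Cd68 was lost without Met2 replicate 2 (0.0805), Met3 replicate 1 (0.0592) or 2 (0.0744), or Primary2 replicate 1 (0.0603) or 3 (0.0642), and with no round block (0.0539). Of 2 tested endothelial markers 1 was lower, Esam, at 0.4635 to 1.329 CPM in primary and 0.05166 to 0.5191 in metastasis samples (-1.58, adjusted p = 0.0401). Its call was lost without Met2 replicate 3 (0.0834), Met3 replicate 2 (0.0575) or 3 (0.0561), Primary2 replicate 2 (0.0839) or 3 (0.0738), or Primary3 replicate 1 (0.0825) or 2 (0.0729), with no filter on low counts (0.0643), with all 15 samples (0.066) and with the ribosomal RNA share as a covariate (0.0544). The other, Tie1, was not called. In bulk samples fewer cells of a type and less RNA per cell cannot be told apart, and whether other cells took part in any of these differences was not tested.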

How the data were processed

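The members are 12 samples chosen by title, and the members, gene lists and tests were chosen with earlier results of these data known. RNA was taken with a PureLink kit and libraries were made with poly(A) selection, per the labels. The authors deposited gene-level estimated counts, made with Salmon 1.3.0 on mm10 per the submitters' processing notes. Of the values 0 are fractional. The gene-level summing, the annotation, rounding and filters: not given in the sources used here. Symbols were found for 54096 of 54418 IDs, and positions came from GENCODE for GRCm38, which equals mm10.

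Counts were fitted with edgeR 4.0.16 under R 4.3.3 (limma 3.58.1, DESeq2 1.42.0 as alternatives), with TMM factors, filterByExpr by group (minimum count 10), and round plus origin as terms. The filter removed 39953 genes and kept 99.9% of the counts. P-values were adjusted by Benjamini-Hochberg over all 14465 genes, and replicates varied with a common dispersion of 0.128 (coefficient of variation 0.358). A standard error is the log2 change over the root of its F statistic. The script was tested on simulated data.

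Named genes are the 12 higher and 12 lower moderate genes with the smallest p, no overlap and equal direction in both rounds, without predicted genes, up to 4 members with the smallest p of each of 35 lists, and Gata6, Apc and Trp53; of the 12 higher genes, 2 are not reported here. Chromosome medians used log2(CPM + 0.5) of genes with a mean of at least 10 CPM. Scaling within each chromosome and the metal response motif were chosen after seeing the data. Promoters are from the RefSeq table (GRCm38.p6), searched on both strands for the hypoxia response, TEAD, amino acid response, AP-1 and metal response motifs, each counted on its own with overlaps between motifs allowed. The symbol Mars1 matched no ID.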

Additional observations from a re-analysis of the deposited data

Results flagged for a closer look

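For the 155 named genes and the 20 chromosome medians, the 6 samples of each side were searched for a sample apart from the rest, by its gap to the nearest sample over the range of the 6 (above Dixon's 95% critical value). Of 350 such sets 19 (5.43%) held one, and chance gives about 1 in 20. In metastasis, Bspry was apart in Met3 replicate 1 at 349.2 CPM, Cr1l in Met2 replicate 1 at 55.4, Cog4 in Met2 replicate 2 at 40.43 and Hsd17b4 in Met2 replicate 1 at 56.48 CPM. Met2 replicate 1 was also apart for Krt8 at 823 CPM (the other 5 between 3021 and 4292), Apc at 34.66 (44.71 to 48.32) and Gata6 at 1.204 (0 to 0.1445), and Met3 replicate 1 for the endothelial marker Tie1 at 10.52 CPM (1.071 to 3.829). In primary samples, Primary2 replicate 3 was apart for Psmb7 at 354.9 CPM, Dsp at 252.5 and Nrp1 at 11.56, and Primary2 replicate 1 for Bok at 46.93 CPM. Primary3 replicate 1 was apart for Nob1, a ribosome assembly factor, at 95.85 CPM and Socs5 at 40.73, and Primary3 replicate 2 for Mrpl32 at 49.36 CPM.

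Of the chromosome medians 4 were apart, all in Met3 replicate 3: chromosome 3 at -0.427 (the other 5 between -0.152 and -0.0732), chromosome 8 at -0.235 (-0.311 to -0.284), chromosome 10 at -0.0245 (0.24 to 0.291) and chromosome 19 at 0.209 (-0.151 to -0.0744). The cause was not tested. No named gene or chromosome median separated the groups of round 2 in one direction and those of round 3 in the other.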

How the results depend on the processing

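The pooled count of 3898 ran from 3071 (without Primary3 replicate 1) to 5056 (without Met2 replicate 1) with each sample left out in turn, and was 4795 with DESeq2, 4091 with limma-voom and 3424 with no filter on low counts. The moderate count of 422 ran from 325 (scaled within each chromosome) to 513. The counts within a round depended more on the setting. Met2 against Primary2 (1453) gave 2592 with DESeq2, 31 with the ribosomal RNA share as covariate and 567 to 1969 with each sample left out. Met3 against Primary3 (2596) gave 1092 with that covariate and 993 to 3609 with each sample left out. The difference between rounds gave 200 with DESeq2 and 0 to 6 with each sample left out. The ribosomal share follows Met2 within round 2, at 6.24% to 7.52% against 3.74% to 3.83% in Primary2, so the share and the group cannot be told apart there.

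Replicate numbers are shared across groups, but same-numbered samples did not deviate together (correlations from -0.172 to 0.158), and 1 of 6 metastasis samples correlated best with its own number. With a replicate block 3084 genes were called in the pooled comparison, 475 in round 2 and 1491 in round 3.

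Of 3716 alternative values of 155 named genes, 3528 kept direction and call, 172 lost the call, 14 gained it and 2 changed sign. The 2 were Nob1 (0.06176, from -0.22, not called in either) and Pik3c3 (0.009755, from -0.37), both scaled within each chromosome. Of 1440 alternative counts of 60 list results, 223 moved by over 1.5 times. Precision is limited by 3 samples per group and, for genes under 1 CPM, by depth.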
